A study of Mus musculus with 6 samples.

Results

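The genes of sterol synthesis, uptake and regulation were examined in 6 bulk RNA-seq libraries of 5-fluorouracil (5-FU)-treated mice. The members are a named set of 30 genes of 41325 gene rows, found by symbol in every library. Of these, 20 encode enzymes of the route from acetyl-CoA to cholesterol, 1 of them on its geranylgeranyl branch, and 10 encode regulators and proteins that take up, move or store sterol. The mice were females of the ICR stock, which is outbred, purchased when 10 weeks old and kept for 7 days before treatment. All were given 5-FU, an inhibitor of thymidylate synthesis, by intraperitoneal injection of 20 mg/kg/day, 2 times weekly over 3 weeks. The elemental diet group (3 libraries) also received by mouth 1.6 kcal in 0.8 mL per day of Elental, a liquid formula with amino acids in place of protein, split over 2 gavages on 5 days of each week, and the control group (3 libraries) an equal amount of saline. Both groups ate the same chow, and a group without 5-FU was not analysed here.

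Cells make cholesterol by joining acetyl-CoA units into mevalonate, turning mevalonate into isoprenoid units, condensing these to squalene and closing squalene into the sterol ring, which later enzymes trim. The pathway is held in balance by SREBP transcription factors, which SCAP carries out of the endoplasmic reticulum when sterol is low and INSIG proteins hold back when sterol is high. When sterol is plentiful, the oxysterol receptors LXR raise genes for sterol export and for MYLIP, which marks lipoprotein receptors for breakdown, and SOAT1 stores the excess as esters. Dividing cells need sterol for new membrane, and red cell precursors, lymphocytes and macrophages all carry this machinery.

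Library totals were 29053287 to 33073125 reads assigned to genes, so that 3 reads, the most that a count of 0 allows, stood for 0.0907 to 0.103 CPM (gene reads scaled to a common library total); such limits cover counting error only. The tissue is labelled salivary gland, but of 12 salivary acinar and duct markers 5 (Smgc, Pip, Bpifa1, Prb1 and Dcpp1) had 0 reads in all 6 libraries, and the summed level of the 12 was 5.55 to 9.26 CPM with elemental diet and 14.1 to 15.6 with saline. Markers of blood and immune cells also differed. Summed over 11 erythroid genes the level was 7587 to 8840 CPM with elemental diet and 213 to 283 with saline, over 12 proliferation genes 5200 to 6041 and 193 to 204, over 8 neutrophil genes 212 to 248 and 7.82 to 10.4, over 9 B cell genes 843 to 892 and 6089 to 6296, over 8 T cell genes 64.0 to 69.5 and 410 to 503, and over 8 macrophage genes 566 to 687 and 1215 to 1498. All members of the erythroid, proliferation and neutrophil lists were called higher, all of the B and T cell lists lower, and 7 of 8 macrophage genes lower. The part of these cell types in the sterol results was not tested, and in bulk libraries fewer cells of a type cannot be told apart from less RNA per cell. In 1 library of each group, replicate 1, summed adipocyte markers stood at 94.5 and 90.6 CPM, against 3.32 to 7.48 in the other 4 libraries. Without these 2 libraries 19 of the 30 sterol genes were higher and 7 lower with elemental diet, against 19 and 8 with all 6. Of the 18303 genes tested with all 6 libraries, 38.0% were called higher and 40.2% lower.

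The stretches before the start sites of 4 members are shown because the members share a promoter motif and were called higher (Hmgcs1, Nsdhl), lower (Mylip) or not called (Mvk). Hmgcs1 encodes the synthase that makes HMG-CoA, Nsdhl an enzyme that trims the sterol ring, Mvk mevalonate kinase and Mylip the ubiquitin ligase of lipoprotein receptors. Each is given as the 250 bases before the RefSeq start site on GRCm38, plus strand, 5′ to 3′, with capitals for the motifs. The positions are chr13:119690101-119690350 for Hmgcs1, chrX:72918271-72918520 for Nsdhl, chr5:114444019-114444268 for Mvk and chr13:45389492-45389741 for Mylip.
Hmgcs1: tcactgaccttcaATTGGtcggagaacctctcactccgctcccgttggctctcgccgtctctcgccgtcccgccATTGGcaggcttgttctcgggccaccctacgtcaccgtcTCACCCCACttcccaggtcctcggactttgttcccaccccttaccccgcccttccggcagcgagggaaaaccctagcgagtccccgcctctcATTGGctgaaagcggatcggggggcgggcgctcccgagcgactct
Nsdhl: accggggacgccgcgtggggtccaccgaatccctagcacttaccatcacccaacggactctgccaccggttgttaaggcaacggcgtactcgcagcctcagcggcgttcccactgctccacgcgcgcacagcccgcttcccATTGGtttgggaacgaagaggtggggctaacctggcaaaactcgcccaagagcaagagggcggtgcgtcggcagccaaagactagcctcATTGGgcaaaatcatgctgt
Mvk: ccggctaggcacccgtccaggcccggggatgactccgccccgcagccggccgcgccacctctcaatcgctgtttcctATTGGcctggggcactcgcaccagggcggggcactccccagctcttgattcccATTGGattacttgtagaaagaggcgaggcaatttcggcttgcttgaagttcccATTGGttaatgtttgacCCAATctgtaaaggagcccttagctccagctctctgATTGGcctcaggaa
Mylip: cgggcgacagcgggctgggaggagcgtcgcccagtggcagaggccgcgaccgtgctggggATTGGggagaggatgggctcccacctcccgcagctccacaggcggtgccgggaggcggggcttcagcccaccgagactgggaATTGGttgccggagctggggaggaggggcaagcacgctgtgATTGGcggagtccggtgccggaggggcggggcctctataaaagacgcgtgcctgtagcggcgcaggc

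The capitals mark CCAAT or its reverse ATTGG, the box bound by NF-Y, a factor that works beside SREBP, and in Hmgcs1 also TCACCCCAC, a match to the sterol regulatory element core TCACNCCAC. The windows searched ran from 250 bases before to 50 after each RefSeq start, on both strands, and 26 of the 30 members had at least 1 window. At least 1 NF-Y box lay in a window of 23 of these 26 genes, the exceptions being Acat2, Nr1h2 and Scap, against 42.2% of the 12738 tested genes with a window. Counted per window it was 24 of 35 (68.6%) against 37.4% of all 32851 windows, since 6 members had more than 1 window. The box was in 14 of 15 members called higher, 6 of 8 called lower and 3 of 3 not called. The 49 boxes had a median position 62 bases before the start. The element core was found in Hmgcs1 only, against 1.44% of the 27025 genes with a window, and the LXR repeat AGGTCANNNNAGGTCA in 0 of 26 members and in 5 of all windows. A match is a run of letters, not a measured site.

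Comparing elemental diet with saline asks whether the sterol pathway differs between the groups under 5-FU. Synthesis genes were mostly higher with elemental diet. The regulators and the genes that take up, move or store sterol were more often lower than higher. Among them only Mylip, Vldlr and Soat1 fell when tested against a fold of 1.5. All 30 members passed the low-count filter. By edgeR's quasi-likelihood test, adjusted over 18303 genes, 19 members rose, 8 fell and 3 did not pass. The background was high: 38.0% of all tested genes rose and 40.2% fell, 78.1% in all. Of the 20 synthesis members 16 rose and 1 fell, with a median log2 fold change of 0.85, and of the 10 regulation and handling members 3 rose and 7 fell, with a median of -0.25, where the median over all tested genes was -0.08. The groups did not overlap for 19 members that were higher and 8 that were lower, where 81.0% of all tested genes did not overlap. More than 2-fold rises were called for 10 members and more than 2-fold falls for 2, against 19.1% and 23.7% of tested genes. Tested against a fold of 1.5, 13 members rose and 3 fell, where 50.8% of tested genes were called.

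**Figure D1:**
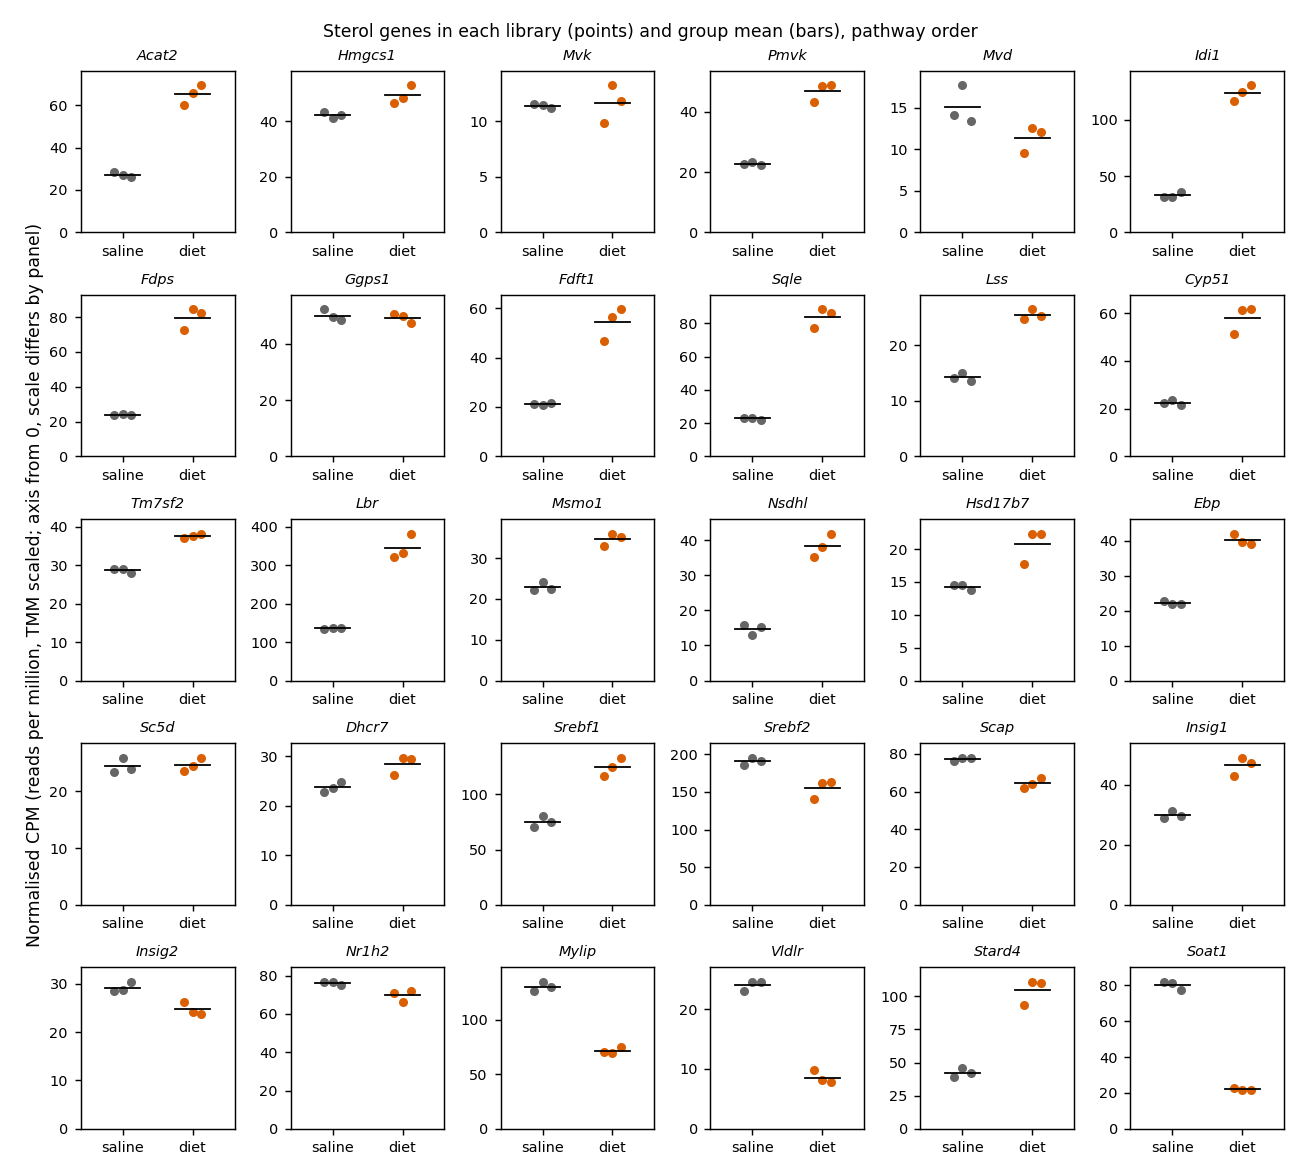
Normalised CPM of each of the 30 members (panels, pathway order) in the 3 saline and 3 elemental diet libraries; points are libraries, bars are group means, and each axis starts at 0 with its own scale. Idi1 sits at 117 to 131 with elemental diet and 31.1 to 36.0 with saline, and Soat1 at 21.6 to 22.5 and 77.2 to 82.0.

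The scaling sets the size and, for small changes, the direction of these values. With upper quartile scaling and with none for composition, the median over all genes moved from -0.08 to -0.35 and -0.39 on the log2 scale, and the split of calls from 6951 higher and 7352 lower to 5601 and 9051 and to 5407 and 9265. Under either, 13 of the 20 synthesis members rose instead of 16, and 3 or 4 fell instead of 1. Of the 19 members that rose, 16 kept their call in all 15 alternatives other than a test against a fold of 1.5, and of the 8 that fell 5 did. The exceptions were Hmgcs1, Tm7sf2 and Dhcr7 among the rises and Mvd, Insig2 and Nr1h2 among the falls.

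**Figure D2:**
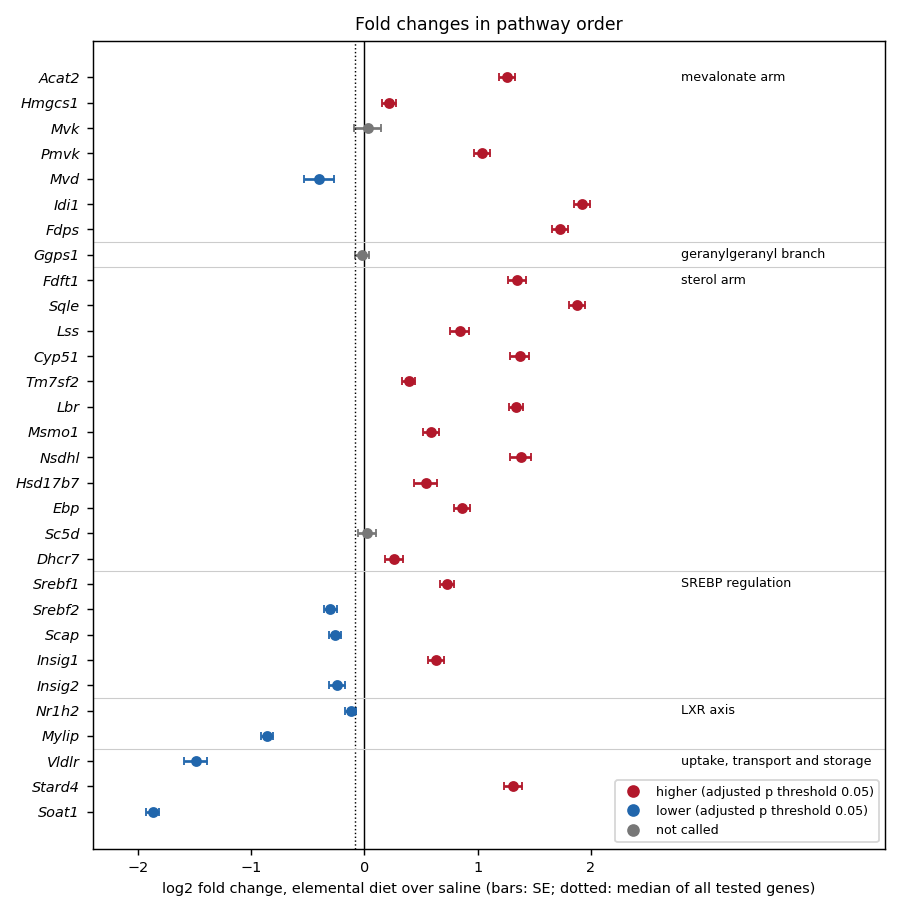
Log2 fold change of each member, elemental diet over saline, in pathway order; bars are standard errors (SE), colours give the call at an adjusted p of 0.05, and the dotted line is the median of all tested genes (-0.08). The synthesis members run from -0.40 (Mvd) to 1.92 (Idi1) and the rest from -1.87 (Soat1) to 1.31 (Stard4).

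In the mevalonate arm 5 of 7 genes rose, 1 fell and 1 did not pass (median log2 fold change 1.04). The shares over all tested genes were 38.0% higher and 40.2% lower. Acat2, a cytosolic thiolase that joins acetyl-CoA units, had 60.3, 65.7 and 69.4 CPM in the elemental diet libraries and 28.4, 27.0 and 25.9 in the saline libraries. Every elemental diet library lay above every saline library, by 2.40-fold on the group level (log2 fold change 1.26, SE 0.07, adjusted p = 4.7e-10). The step after it, Hmgcs1, whose promoter carries the element core shown above, rose little, to 46.6, 48.5 and 53.1 CPM from 43.3, 41.4 and 42.2 (log2 fold change 0.22, adjusted p = 0.0046), with -0.05 and -0.09 under upper quartile and no composition scaling and no call with exon reads (0.13, adjusted p = 0.064). For Mvk the groups overlapped, at 9.85, 13.2 and 11.8 CPM and 11.6, 11.4 and 11.2 (log2 fold change 0.03, SE 0.12, adjusted p = 0.81), and its sign was negative under those scalings too (-0.24, adjusted p = 0.074, and -0.28, called lower with adjusted p = 0.043). Pmvk, phosphomevalonate kinase, rose from 22.8 ± 0.418 CPM (SD, n = 3) to 46.9 ± 3.16 (log2 fold change 1.04).

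Mvd, the decarboxylase that makes the isoprenoid unit, was the 1 synthesis gene called lower, at 9.56, 12.6 and 12.1 CPM with elemental diet and 14.1, 17.7 and 13.4 with saline (log2 fold change -0.40, adjusted p = 0.015). This call is uncertain. A row of another gene, Gm20388, spans it on the other strand, 59.0% of its reads with elemental diet and 42.9% with saline were unique, and 5.07% and 28.0% of its reads lay in introns. With unique reads its log2 fold change was 0.03 (adjusted p = 0.88), with exon reads -0.09 (adjusted p = 0.47), and it was not called without elemental diet replicate 1 (adjusted p = 0.063) or without saline replicate 2 (adjusted p = 0.079).

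The 3 largest rises of the pathway came after this step, in Idi1, Fdps and Sqle. Idi1 (chromosome 13, 8885501 to 8892451), the isomerase that readies isoprenoid units for joining, was measured at 117, 125 and 131 CPM under elemental diet against 31.4, 31.1 and 36.0 under saline, 3.79-fold apart (log2 fold change 1.92 ± 0.07 SE, adjusted p = 5.1e-12). Fdps, which builds farnesyl diphosphate, stood at 72.3, 84.4 and 82.1 CPM against 23.7, 24.4 and 23.7. Its groups were far apart (log2 fold change 1.73), although 39.5% and 34.9% of its reads were unique; with unique reads the log2 fold change was 1.88. Farnesyl diphosphate is the branch point of the pathway. Ggps1, which takes it toward geranylgeranyl groups for protein anchoring, showed overlapping groups at 50.4, 49.9 and 47.4 CPM and 52.2, 49.5 and 48.4 (log2 fold change -0.02, SE 0.06, adjusted p = 0.73), with 0.02 under RLE scaling and called falls (-0.29 and -0.33) under upper quartile and no composition scaling.

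Fdft1, which takes farnesyl diphosphate toward squalene and so toward sterol, rose on the other side of that branch, from 21.3, 20.8 and 21.5 CPM to 46.9, 56.2 and 59.5 (log2 fold change 1.35, SE 0.08, adjusted p = 3.2e-09). In TPM, the authors' transcript level per length, the ratio of Fdft1 to Ggps1 within a library was 1.04, 1.25 and 1.36 with elemental diet and 0.467, 0.492 and 0.552 with saline. A ratio within a library does not depend on the scaling, and this one was 2.42-fold higher with elemental diet. The exact permutation test, two-sided, gave p = 0.1, which is its floor with 20 possible arrangements of the libraries. Which genes to set against each other was decided with the values in view.

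The sterol arm from squalene onward was higher nearly throughout: 11 of 12 genes rose, 0 fell and 1 did not pass (median log2 fold change 0.85). Among all tested genes 38.0% rose and 40.2% fell. Sqle (chromosome 15, 59315077 to 59331192), squalene epoxidase and a rate-limiting step, reached 77.0, 88.4 and 86.2 CPM under elemental diet against 23.3, 23.0 and 22.1 under saline, 3.68-fold apart (log2 fold change 1.88, SE 0.07, adjusted p = 5.3e-12). Lss, which closes the ring to lanosterol, rose from 14.1, 14.9 and 13.6 CPM to 24.7, 26.4 and 25.2 (log2 fold change 0.84, and 1.20 with unique reads, which were 47.4% and 36.1% of its reads). Cyp51, the lanosterol demethylase, rose from 22.3, 23.8 and 21.5 CPM to 51.5, 61.4 and 61.5 (log2 fold change 1.37). For these 3 genes the lowest elemental diet library lay above the highest saline library.

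The step after Cyp51 has a pair of enzymes. Lbr, the lamin B receptor of the inner nuclear membrane, is also a sterol C14 reductase, and Tm7sf2 is the other. Lbr reached 321, 332 and 382 CPM under elemental diet against 134, 137 and 136 under saline (log2 fold change 1.34, SE 0.06, adjusted p = 1.4e-10), and in TPM it was the most abundant member with elemental diet (177 ± 16.1, SD, n = 3) and the second most abundant with saline (87.5 ± 1.29). Tm7sf2 stood at 37.1, 37.5 and 38.2 CPM and 29.0, 28.9 and 28.1 (log2 fold change 0.39, adjusted p = 4e-05), and lost its call under upper quartile (0.12, adjusted p = 0.072) and no composition scaling (0.08, adjusted p = 0.2). A row of Vps51 overlaps it on the same strand, 25.4% and 18.7% of its reads were unique, and with unique reads its log2 fold change was 0.80. Its TPM were 16.1 ± 0.143 with elemental diet and 15.6 ± 0.859 with saline (SD, n = 3). The TPM ratio of Lbr to Tm7sf2 was 10.4, 10.5 and 12.0 with elemental diet and 5.37, 5.58 and 5.94 with saline.

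The enzymes after the C14 reductases rose by differing amounts. Nsdhl, a dehydrogenase of sterol C4 demethylation whose promoter is shown above, rose from 15.7, 13.0 and 15.3 CPM to 35.1, 38.1 and 41.8 (log2 fold change 1.38, SE 0.09, adjusted p = 5.5e-09). Its partners in that step moved less: Msmo1, the C4 oxidase, by 0.59 on the log2 scale (23.0 ± 1.01 to 34.7 ± 1.51 CPM, SD, n = 3) and Hsd17b7, the ketoreductase, by 0.54 (14.3 ± 0.395 to 20.8 ± 2.65). Ebp, the sterol isomerase, rose from 22.7, 21.8 and 21.8 CPM to 42.0, 39.5 and 39.0 (log2 fold change 0.86). At the end of the route the change was small or not seen. Sc5d, the C5 desaturase, had overlapping groups at 23.6, 24.5 and 26.0 CPM against 23.3, 25.9 and 24.0 (log2 fold change 0.02, SE 0.08, adjusted p = 0.85). Under upper quartile and no composition scaling it was called lower, with log2 fold changes of -0.26 and -0.29. Dhcr7, which makes cholesterol from its last precursor, stood at 26.2, 29.7 and 29.4 CPM against 22.8, 23.5 and 24.9 (log2 fold change 0.26, adjusted p = 0.0069), and its sign turned under upper quartile (-0.01) and no composition scaling (-0.05).

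Steps of 1 route shifted relative to each other within libraries. The TPM ratio of Sqle to Sc5d was 2.75, 3.07 and 2.81 with elemental diet and 0.760, 0.732 and 0.740 with saline, a 3.87-fold difference. The ratio of Idi1 to Hmgcs1 was 3.36, 3.44 and 3.27 against 0.979, 1.02 and 1.15. In TPM, Hmgcs1 was lower with elemental diet (27.6 ± 1.68 against 30.9 ± 0.960, SD, n = 3), against the direction of its call in CPM. The groups did not overlap, at 26.5, 26.8 and 29.5 TPM with elemental diet and 32.0, 30.3 and 30.4 with saline. TPM carry no TMM factors, and without composition scaling the log2 fold change of Hmgcs1 in total reads was -0.09. Sc5d and Ggps1, not called in CPM, were also lower in TPM with elemental diet (group means 12.7 against 15.9 and 24.1 against 28.3). In the saline libraries Idi1 and Hmgcs1 were near equal per length, and in the elemental diet libraries Idi1 was above Hmgcs1 in all 3. Summed over the 20 synthesis members the level was 722, 765 and 801 TPM with elemental diet and 446, 441 and 438 with saline, 1.73-fold apart (exact permutation test, two-sided, p = 0.1, again its floor).

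**Figure D3:**
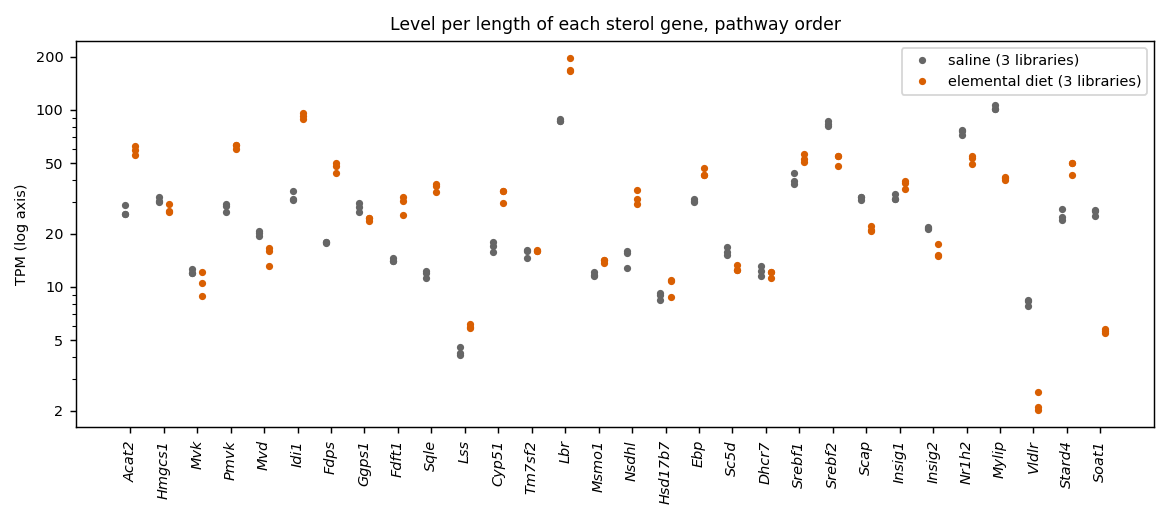
TPM of each member on a log axis, in pathway order; every point is 1 library, saline in grey and elemental diet in orange. Lbr is highest with elemental diet (167 to 196) and Mylip highest with saline (101 to 106), and Vldlr is lowest with elemental diet (2.02 to 2.53).

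The SREBP machinery split. Srebf1, whose protein drives mainly fatty acid genes, rose from 70.5, 80.8 and 75.0 CPM to 117, 125 and 133 (log2 fold change 0.73, SE 0.06, adjusted p = 1.2e-07). Srebf2, whose protein drives mainly the sterol genes above, was lower, at 140, 162 and 163 CPM with elemental diet against 185, 196 and 191 (log2 fold change -0.30 ± 0.06 SE, adjusted p = 0.00044). Neither pair of groups overlapped, and the TPM ratio of Srebf1 to Srebf2 was 1.06, 0.974 and 1.04 with elemental diet and 0.471, 0.508 and 0.475 with saline. The Srebf2 transcript was thus lower in the libraries in which 16 synthesis genes were higher. These libraries measure mRNA and not the cleaved, active protein.

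Scap, the escort of both factors, was lower as well, at 62.2, 63.9 and 67.1 CPM against 76.2, 78.0 and 77.7 (log2 fold change -0.26, adjusted p = 0.00029). The anchors that hold SCAP back moved in opposite directions. Insig1, itself a target of SREBP, rose from 29.1, 31.2 and 29.7 CPM to 43.0, 49.1 and 47.4 (log2 fold change 0.63, adjusted p = 8.9e-07), while Insig2 fell from 28.5, 28.7 and 30.4 to 26.3, 24.2 and 23.8 (log2 fold change -0.24, adjusted p = 0.0077). The Insig2 call was lost with exon reads (-0.15, adjusted p = 0.1). The TPM ratio of Insig1 to Insig2 was 2.04, 2.67 and 2.53 with elemental diet and 1.48, 1.55 and 1.44 with saline.

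Both members of the LXR axis were lower with elemental diet, where 40.2% of all tested genes fell. Nr1h2, the broadly expressed receptor LXR beta, stood at 71.2, 66.1 and 72.2 CPM against 76.8, 76.6 and 74.9 (log2 fold change -0.12, adjusted p = 0.042). It lost this call under RLE scaling (adjusted p = 0.19) and in DESeq2 (adjusted p = 0.26), and when elemental diet replicate 2 (adjusted p = 0.26) or any 1 of saline replicates 1, 2 and 3 (adjusted p = 0.059, 0.065 and 0.054) was left out. Mylip (chromosome 13, 45389742 to 45412022), a target of LXR, fell clearly, from 126, 135 and 131 CPM to 70.2, 69.9 and 75.3 (log2 fold change -0.86, SE 0.05, adjusted p = 2e-09). In TPM it was the most abundant of all 30 members with saline (103 ± 2.95, SD, n = 3) and only the 11th with elemental diet (41.0 ± 0.847). Of its reads 29.8% and 27.3% lay in introns.

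Of the genes that take up, move or store sterol, 2 fell and 1 rose, where 40.2% of all tested genes fell and 38.0% rose. Soat1 (chromosome 1, 156424525 to 156474331), which esterifies cholesterol for storage, had the largest fall among the members, to 22.5, 21.6 and 21.6 CPM under elemental diet from 82.0, 81.4 and 77.2 under saline, 3.66-fold lower (log2 fold change -1.87 ± 0.06 SE, adjusted p = 1.5e-12). Vldlr, a lipoprotein receptor that MYLIP marks for breakdown, fell from 23.0, 24.5 and 24.6 CPM to 9.78, 8.13 and 7.78 (log2 fold change -1.49, SE 0.10, adjusted p = 8.4e-09). Stard4, a carrier that moves cholesterol between membranes and an SREBP target, went the other way, from 39.4, 45.7 and 41.9 CPM to 93.5, 111 and 110 (log2 fold change 1.31, SE 0.08, adjusted p = 4.9e-09). Within libraries Sqle stood to Soat1 at TPM ratios of 5.89, 6.97 and 6.67 with elemental diet and 0.442, 0.453 and 0.444 with saline. In TPM the Sqle transcript was thus above the Soat1 transcript in all elemental diet libraries and below it in all saline libraries.

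Related genes outside the set of 30 were mixed. Of 26 other sterol genes 25 were tested, of which 12 rose and 12 fell (median log2 fold change -0.06). Over all tested genes 38.0% rose and 40.2% fell. Among those that rose were Lrp8, a lipoprotein receptor (11.2 ± 1.44 to 47.6 ± 3.63 CPM, SD, n = 3, log2 fold change 2.09) and Scarb1, the HDL receptor (68.9 ± 2.85 to 149 ± 9.10 CPM). Soat2, the other cholesterol esterifying enzyme, rose from 7.12 ± 0.598 to 23.8 ± 1.57 CPM (log2 fold change 1.74), against the fall of Soat1, although 54.2% and 63.6% of its reads lay in introns. Among those that fell were the sterol exporters and LXR targets Abca1 (104 ± 3.82 to 35.6 ± 2.67 CPM, log2 fold change -1.55) and Abcg1 (82.5 ± 4.07 to 25.2 ± 1.98, log2 fold change -1.71). These exporters were picked after their values were seen. They were lower with elemental diet, as Mylip was. In the same libraries the summed macrophage markers were 2.09-fold lower, the B cell markers 7.09-fold and the T cell markers 6.82-fold. The erythroid, proliferation and neutrophil sums were higher. The part of any of these cells in the result was not tested.

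Of 16 fatty acid genes that SREBP1 is known to drive 9 rose, 3 fell and 4 did not pass (median 0.53). The shares over all tested genes were 38.0% higher and 40.2% lower, 78.1% called in all. The desaturases differed in direction: Fads2 rose from 9.37 ± 0.541 to 73.9 ± 10.8 CPM (log2 fold change 2.98) and Fads1 from 32.1 ± 0.967 to 120 ± 7.28 (1.91), while Scd1, a target of both SREBP1 and LXR, fell from 611 ± 11.5 to 161 ± 11.8 (log2 fold change -1.93) and its paralogue Scd2 rose slightly, from 229 ± 2.46 to 257 ± 20.8 (log2 fold change 0.17, adjusted p = 0.016). Acss2, which makes acetyl-CoA from acetate for both routes, rose from 13.1 ± 1.19 to 51.0 ± 1.22 (log2 fold change 1.95). Thrsp of this list stood at 9.59 CPM in elemental diet replicate 1 and 5.11 in saline replicate 1, the libraries with adipocyte markers, and at 0.612 to 1.08 in the other 4. Of 13 genes that use isoprenoids, for ubiquinone, dolichol or protein anchors, 9 rose, 2 fell and 2 did not pass (median 0.45). These counts too stand beside 38.0% and 40.2% of all tested genes. Fntb, the farnesyltransferase subunit, rose by 1.99 on the log2 scale. The subunits of the enzyme that anchors Rab proteins went opposite ways, Rabggta with a log2 fold change of -1.21 (adjusted p = 8.1e-09) and Rabggtb with 1.35 (adjusted p = 2.1e-11).

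**Figure D4:**
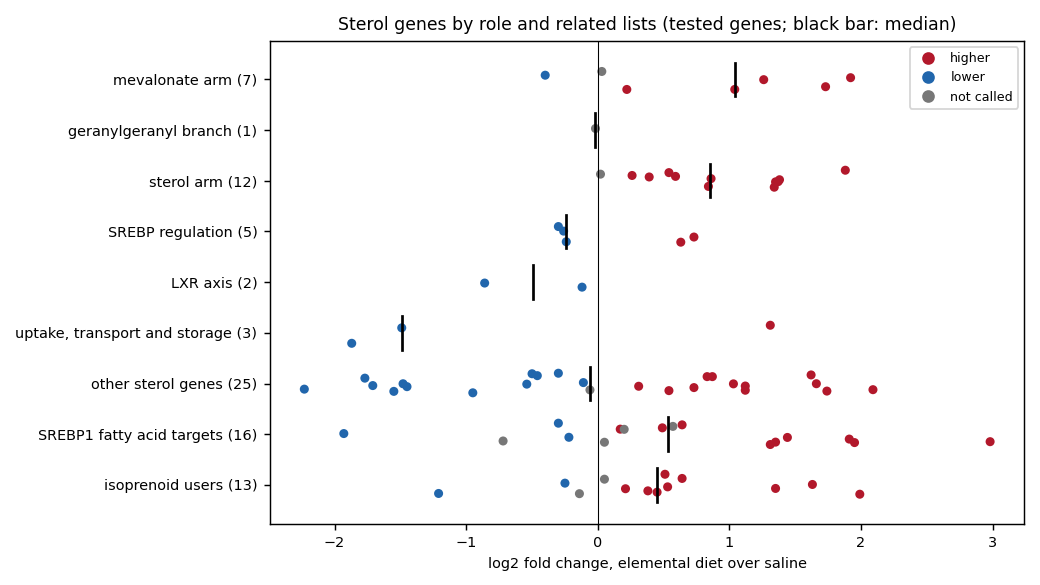
Log2 fold change of each tested gene, elemental diet over saline, by role within the 30 members and in 3 related lists (number of genes in brackets); black bars are medians and colours give the call. The medians are 1.04 for the mevalonate arm, 0.85 for the sterol arm, -0.24 for SREBP regulation and -0.06 for the other sterol genes.

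Reads in introns differed between the groups across the whole libraries, at 8.39% to 8.82% with elemental diet and 13.7% to 14.4% with saline, and most members followed. Among the 29 members with at least 30 intron reads in each group, the intron log2 ratio of elemental diet to saline lay below the exon log2 ratio for 28, Mylip being the exception. For Pmvk 13.5% of reads with elemental diet and 39.6% with saline lay in introns, and its log2 fold change was 1.44 with exon reads against 1.04 with all reads. Intron ratios were above 0 for 10 members, among them Idi1 (1.35, on 69 and 33 reads), Stard4 (1.06), Cyp51 (0.87), Fdft1 (0.76), Sqle (0.69) and Fdps (0.66). For Soat1 the intron ratio was -2.70 beside an exon ratio of -1.82. The log2 ratio over all intron reads of the libraries was -0.39.

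**Figure D5:**
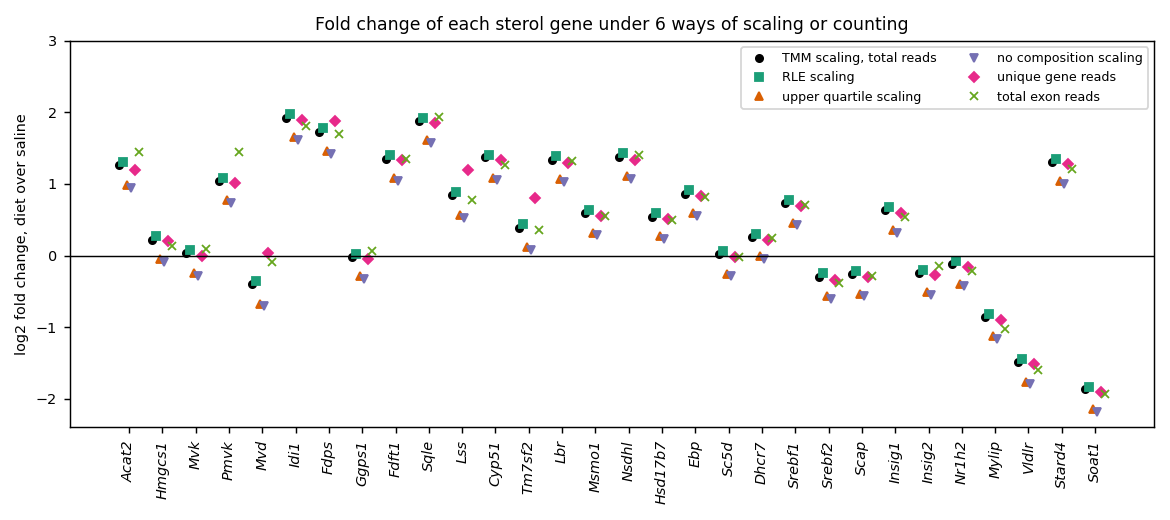
Log2 fold change of each member, elemental diet over saline, under 4 scalings of total reads and with unique or exon reads only; each symbol is 1 fit. For all 30 members upper quartile and no composition scaling lie below the other 4 fits, and Hmgcs1, Mvk, Sc5d and Dhcr7 change sign there, while Idi1 stays between 1.61 and 1.97 over the 4 scalings and Soat1 between -2.18 and -1.83.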

How the data were processed

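Polyadenylated RNA of 6 libraries was sequenced as 75 bp paired reads, per the labels' protocols, which name fibroblasts or keratinocytes as the RNA source while the tissue label names salivary gland. Groups came from the titles; the labels give 3 mice a group without tying each library to a mouse, so a p-value reflects variation among libraries, which may be technical. The deposited files give whole-number read counts per gene, total and unique, split into exon and intron reads, per the file headers. TPM and RPKM values were computed by the authors, per the file headers; RPKM was not used. The submitters' processing notes name GRCh37 and GRCm38; for the aligner, the counter and its strand setting the sources used here give nothing, so overlapping and antisense genes may share reads.

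Total gene reads were tested with edgeR 4.0.16 in R 4.3.3 (glmQLFit robust, glmQLFTest, two-sided; TMM scaling; filterByExpr, leaving 18303 genes; Benjamini-Hochberg adjustment at 0.05). CPM values carry TMM factors. The SE is the absolute log2 fold change over the square root of F. Alternatives were RLE, upper quartile and no composition scaling, no filter, unique reads, exon reads, DESeq2 1.42.0, a replicate block, a test against a fold of 1.5 and leaving out each library, and, added after the data were seen, leaving out both replicate 1 libraries. In 5 simulations 200 of the same 18303 genes were changed. The share of changed genes recovered was 55.3% for a fold of 1.5, 70.6% for 2 and 90.3% for 4. Of the calls 9.21% were false, more than the threshold of 0.05 aims at. In the data 78.1% of genes were called, so these rates need not hold for this comparison. Between replicates of a group the median chi-square per gene was 2.96 to 5.97 times that of sampling noise. All 30 members are named, by role; related lists are given by counts with a few members picked after their values were seen. Of 77 marker symbols 76 were found. Promoters are from RefSeq on GRCm38.p6. The members and lists were chosen with earlier results of these data known.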

Additional observations from a re-analysis of the deposited data

How the results depend on the processing

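The counts of members that rose (19) and fell (8) stayed within 1.5 times under all alternatives except the test against a fold of 1.5, where 3 members fell, all 3 of them regulation and handling members, and 9294 genes were called in all, against 14303. Of 480 results for single members under 16 alternatives 433 kept direction and side of the threshold, 30 lost the call, 5 gained it and 20 changed sign, of which 5 also lost and 3 also gained a call; the cause was not tested. Under upper quartile and no composition scaling the log2 fold changes were -0.05 and -0.09 for Hmgcs1, -0.24 and -0.28 for Mvk, -0.26 and -0.29 for Sc5d, and -0.01 and -0.05 for Dhcr7. Ggps1 was at 0.02 with RLE scaling and with DESeq2 and at 0.07 with exon reads. With unique reads Mvk was at -0.003, Mvd at 0.03 and Sc5d at -0.02, and with exon reads Sc5d was at -0.02. Leaving out 1 library gave -0.06 to 0.16 for Mvk, -0.05 to 0.02 for Ggps1 and -0.03 to 0.06 for Sc5d. Without both libraries that held adipocyte transcripts 19 members rose and 7 fell, with Nr1h2 no longer called. Same-numbered libraries of the 2 groups deviated together at r = 0.15, -0.01 and 0.10 over genes, so the numbers are not taken as pairs, and not every library correlated best with its own number. With the replicate number as a block 19 members rose and 8 fell, 16 synthesis members rose and 7 regulation and handling members fell, and 14241 genes were called. The spread of Mvk and Mvd among libraries, at 9.56 to 17.7 CPM (SE 0.12 and 0.13), and 3 libraries a group limit the precision.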
